A study of Homo sapiens with 14 samples.

Results

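HOX cluster genes encode homeodomain transcription factors that stand in 4 clusters of the human genome, and 38 of the 39 annotated genes of these clusters were followed in all 14 RNA sequencing libraries, among 60624 gene identifiers listed per library. Members were taken by symbol from the annotated HOXA, HOXB, HOXC and HOXD clusters. HOX genes lie in the order in which they are used along the body axis: low-numbered (anterior) genes are active early and towards the head, high-numbered (posterior) genes later and towards the tail. Retinoids open the anterior end of the clusters, Polycomb proteins keep silent genes closed, and trithorax-type proteins keep active genes open. In the gut tube the set of active HOX genes follows the position of the endoderm, and the pancreas arises from its foregut part.

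All libraries came from the MEL1 human embryonic stem cell line, which the methods of the study give as INS GFP/W, a line with a GFP reporter at the insulin gene, so 1 line stands for each condition. Batch 1 held 1 library each of hPSC (undifferentiated stem cells, kept on mouse feeder cells), DE (definitive endoderm), PP2 (pancreatic progenitors from stepwise differentiation, which included the retinoid TTNPB) and SC-β (insulin-producing cells derived from hPSCs without expansion). Batch 2 held 2 libraries each of expandable pancreatic progenitors (ePPs) at passage 9 (ePP-P9) and passage 21 (ePP-P21), which were grown on feeder cells with EGF, bFGF, a TGFβ inhibitor and I-BET151, and of ePP-β, the insulin-producing cells derived from them. Batch 3 held 2 libraries each of pancreatic progenitors that had been passaged with EGF, bFGF and the TGFβ inhibitor and were then treated over 7 days with DMSO, the solvent, or with I-BET151 at 1 μM, which inhibits BET bromodomain proteins. Values are in TPM, a length-corrected share of each library, and the labels do not say whether replicates were separate cultures, so p-values measure only the spread between libraries, which may be technical.

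Between 14982 and 17578 genes reached 1 TPM per library. Markers of 3 stages followed the labels: 4 pluripotency markers summed to 4224 TPM in hPSC and 5 endoderm markers to 9591 TPM in DE. The 6 β-cell markers summed to at least 28049 TPM in ePP-β and SC-β. The 6 pancreatic progenitor markers did not separate all progenitors from insulin-producing cells. Their sum was 547 TPM in PP2, 613 to 751 TPM in ePPs and 1205 and 670 TPM with I-BET151. With DMSO it was 411 and 324 TPM, below ePP-β (422 and 416 TPM) and SC-β (528 TPM). A list of 15 fibroblast and mesenchyme markers summed to 1694 TPM in PP2 and 3379 TPM in SC-β, with 14 of 15 at or above 1 TPM in both, against 106 to 183 TPM in the ePP and ePP-β libraries. The part of such cells in the HOX values was not tested. In bulk RNA, fewer cells that use a gene and less of its RNA per cell cannot be told apart.

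The upstream sequences of 4 HOXA genes are shown because this cluster held both members that ePPs expressed (HOXA2, HOXA4 and HOXA7) and a member at 0.02 TPM or less in every library (HOXA9). Each is the 250 bases before the RefSeq start on the minus strand of chromosome 7 (GRCh38.p14), at chr7:27102684-27102933, chr7:27130758-27131007, chr7:27156676-27156925 and chr7:27165538-27165787 in that order, with each CG dinucleotide, the site of DNA methylation, in capitals.
HOXA2: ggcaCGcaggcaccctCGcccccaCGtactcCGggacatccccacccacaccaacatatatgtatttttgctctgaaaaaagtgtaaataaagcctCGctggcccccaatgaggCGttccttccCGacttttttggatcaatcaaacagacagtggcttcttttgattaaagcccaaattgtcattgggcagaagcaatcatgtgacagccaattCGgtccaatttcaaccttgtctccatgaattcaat
HOXA4: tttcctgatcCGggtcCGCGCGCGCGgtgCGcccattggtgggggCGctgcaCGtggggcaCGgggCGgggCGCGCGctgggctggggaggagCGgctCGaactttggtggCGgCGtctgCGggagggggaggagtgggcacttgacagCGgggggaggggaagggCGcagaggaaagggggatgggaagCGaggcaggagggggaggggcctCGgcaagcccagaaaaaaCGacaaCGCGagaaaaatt
HOXA7: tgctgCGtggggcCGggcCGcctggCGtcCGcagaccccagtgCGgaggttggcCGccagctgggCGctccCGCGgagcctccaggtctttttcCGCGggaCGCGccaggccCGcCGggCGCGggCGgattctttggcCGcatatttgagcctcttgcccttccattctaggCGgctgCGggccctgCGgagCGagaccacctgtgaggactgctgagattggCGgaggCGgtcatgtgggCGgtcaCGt
HOXA9: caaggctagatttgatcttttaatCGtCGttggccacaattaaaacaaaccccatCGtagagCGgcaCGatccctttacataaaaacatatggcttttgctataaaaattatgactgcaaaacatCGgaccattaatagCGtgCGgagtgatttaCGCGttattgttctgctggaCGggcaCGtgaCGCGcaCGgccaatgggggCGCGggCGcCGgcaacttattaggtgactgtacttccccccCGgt

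The HOXA2 window held 8 CG dinucleotides, the HOXA4 window 26, the HOXA7 window 28 and the HOXA9 window 20, where the median of 35114 RefSeq promoter windows was 11. HOXA9, at 0.02 TPM or less, and HOXA4 and HOXA7, which ePPs expressed, thus all lay above that median, and HOXA2 lay below it. Promoter windows matched 20 of the 38 members, with 27 windows in all, and HOXC4 and HOXC5 shared one. HOXA5, HOXB2 to HOXB9 and HOXB13 were among the members without a window. Of the 10 members with a group mean of 5 TPM or more, only HOXA2 and HOXA3 had windows, so most of these were not searched. Short motifs were searched on both strands of these windows, and occurrences of different motifs may overlap. AGGTCA, the half-site of retinoic acid and other nuclear receptors, was in 0 of 27 HOX windows and in 12.1% of all windows. TGATNNAT, the composite HOX and PBX motif, was in 3 HOX windows (HOXA2, HOXB1 and HOXD11) and in 6.47% of all windows. TTTATG, a motif of the CDX type, was in 3 HOX windows (HOXA3, HOXA9 and HOXD8) against 9.64% of all, TAATTA, the homeodomain core, in 2 (HOXD3 and HOXD11) against 4.35%, and TATAAA in 5 against 10.7%. A match describes letters only.

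The HOX genes in use were mainly those of the HOXB cluster and the anterior and central HOXA genes. A mean of 5 TPM was reached in at least 1 of the 9 groups by 10 members: HOXA2, HOXA3, HOXA5, HOXB2, HOXB3, HOXB4, HOXB6, HOXB7, HOXB8 and HOXB9. A further 9 members reached 1 but not 5 TPM (HOXA4, HOXA7, HOXB1, HOXB5, HOXB13, HOXC4, HOXC6, HOXD1 and HOXD4). The other 19, which stayed under 1 TPM in every group, were HOXA6, HOXA9, HOXA10, HOXA11, HOXA13, HOXC5, HOXC8 to HOXC13, HOXD3 and HOXD8 to HOXD13. By cluster, 10 of 10 HOXB members reached 1 TPM in some group, against 5 of 10 in HOXA, 2 of 9 in HOXC and 2 of 9 in HOXD. By position, 6 of 7 anterior members (paralogue groups 1 to 3) reached it, 11 of 15 central members (groups 4 to 8) and 2 of 16 posterior members (groups 9 to 13), the last being HOXB9 and HOXB13. The clusters spanned chr7:27100354-27200091 (HOXA), chr17:48528526-48728750 (HOXB), chr12:53938831-54056030 (HOXC) and chr2:176092721-176190907 (HOXD) in GRCh38.

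**Figure D1:**
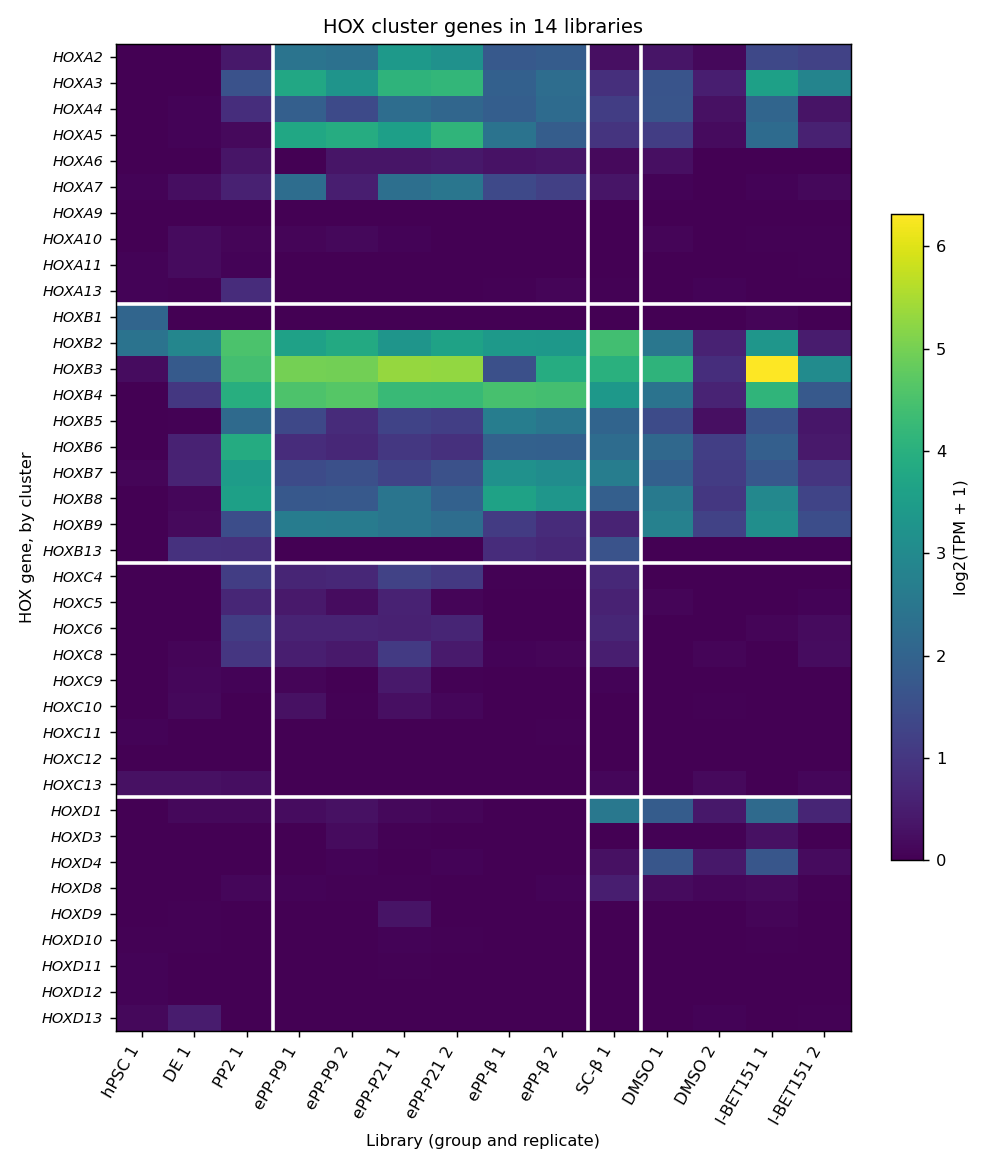
Heat map of the 38 HOX cluster genes (rows, by cluster and paralogue number) in 14 libraries (columns), coloured by log2(TPM + 1), with white lines between clusters and between batches. Colour is concentrated in HOXA2 to HOXA5, HOXA7 and HOXB2 to HOXB9, and the replicate 2 columns of DMSO and I-BET151 are darker than their replicate 1 columns.

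The summed level of the 38 members was 8.22 TPM in hPSC, 13.7 TPM in DE and 107 TPM in PP2. It averaged 112 ± 3.74 TPM at passage 9 and 129 ± 1.91 TPM at passage 21 (SD, n = 2 each), 79.9 ± 4.69 TPM in ePP-β (SD, n = 2) and 73.1 TPM in SC-β. In batch 3 the replicates lay far apart, at 54.95 and 8.80 TPM with DMSO and at 151 and 24.6 TPM with I-BET151. HOXB genes supplied between 60.1% and 92.7% of the sum in each library. The HOXA share was 4.56% in PP2 and 4.89% in SC-β, against 26.6% to 38.1% in the 4 ePP libraries and 18.4% and 17.0% in the ePP-β libraries. The HOXC share stayed at or below 3.94% in every library, and the HOXD share reached 7.36% in SC-β and 9.10% in DMSO replicate 2.

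**Figure D2:**
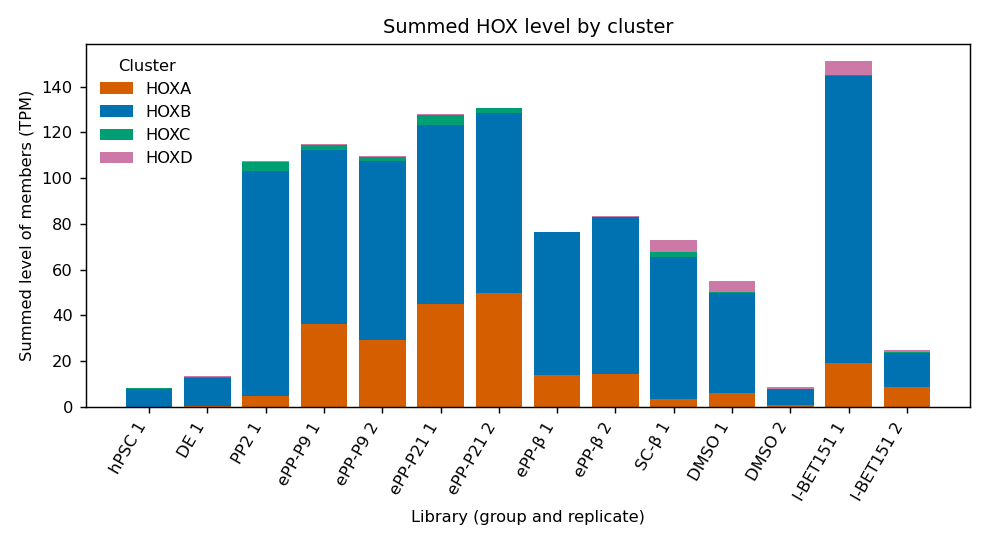
Stacked bars of the summed TPM of HOX members in each of 14 libraries, split by cluster. HOXB (blue) is the largest part of every bar, and HOXA (orange) reaches 29.2 to 49.8 TPM in the 4 ePP libraries against 4.89 TPM in PP2.

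Along the direct differentiation path, HOX levels were low in stem cells and DE and higher in PP2. In hPSC only HOXB2 (4.26 TPM) and HOXB1 (3.13 TPM), both anterior genes with roles in the hindbrain, reached 1 TPM. HOXB1 was then listed at 0 in DE and PP2. In DE, HOXB2 was at 6.41 TPM, HOXB3 at 2.45 TPM and HOXB4 at 1.02 TPM. Of the 4 members with 1 TPM in either library, 2 were higher in DE by over 1 on the log2(TPM + 1) scale (HOXB3 and HOXB4), beside 10.8% of all genes, and 1 was lower (HOXB1), beside 16.1%. HOXB3 and HOXB4 reached 1 TPM only in DE, and HOXB1 only in hPSC, so each could pass the fold in 1 direction only. These stages had 1 library each, so no difference between them has a replicate check.

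In PP2 all 11 members with 1 TPM in DE or PP2 were higher than in DE by over 1 log2 unit, beside 27.2% of all genes, and 0 were lower, beside 9.83%. The median difference of the 11 was 2.17, where that of all genes was 0.38, and members that reached 1 TPM only in PP2 had to lie above DE. The anterior HOXB2 was at 21.8 TPM and HOXB3 at 20.4 TPM, and HOXB4 stood at 14.6 TPM. The central genes next to it were HOXB5 at 3.57 TPM in PP2, HOXB6 (0.52 TPM in DE, 13.6 TPM in PP2), HOXB7 (0.54 and 10.3 TPM) and HOXB8 (0.08 and 11.1 TPM). The posterior HOXB9 was at 1.80 TPM. Outside HOXB, HOXA3 (2.02 TPM), HOXC4 (1.23 TPM) and HOXC6 (1.20 TPM) passed 1 TPM in PP2, and no HOXD gene did.

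From PP2 to SC-β most expressed HOX genes differed by less than 1 log2 unit. Of 14 members with 1 TPM in either library, 1 was higher (HOXD1, beside 12.7% of all genes) and 2 were lower (HOXB6 and HOXB8, beside 22.1%). HOXD1, an anterior gene, had 0.09 TPM in PP2 and 4.72 TPM in SC-β, its highest level in the series. As it reached 1 TPM only in SC-β, it could pass the fold only upwards. HOXB6 was at 13.6 and 3.72 TPM, and HOXB8 at 11.1 and 2.78 TPM. HOXB2 was at 20.0 TPM in SC-β, HOXB3 at 15.0 TPM, HOXB4 at 9.25 TPM and HOXB7 at 5.42 TPM, each below its level in PP2. HOXB13 had its highest level of the series in SC-β, at 2.04 TPM. The summed level of the mesenchyme markers was also at its highest in SC-β.

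In ePPs, HOXA2, HOXA3 and HOXA5 were above PP2 and HOXB6, HOXB7 and HOXB8 were below it. ePP and PP2 libraries came from different batches, and batch and culture cannot be told apart. HOXA5, a central gene known from lung and gut development, was at 12.5 and 13.9 TPM at passage 9 and 10.8 and 16.4 TPM at passage 21, where PP2 had 0.11 TPM. HOXA3, known from pharyngeal organs, was at 12.7, 8.65, 16.3 and 17.2 TPM in the same 4 libraries and at 2.02 TPM in PP2. HOXA2, known from the hindbrain and its neural crest, was at 4.39, 4.08, 9.55 and 8.12 TPM, against 0.32 TPM in PP2.

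These 3 HOXA genes were the members higher by over 1 log2 unit in all 4 ePP libraries, of 16 with 1 TPM in at least 1 of the 5 libraries, beside 4.81% of all genes. Of the 3, HOXA2 and HOXA5 reached 1 TPM only in ePPs, so they could pass that fold only upwards. HOXA7 exceeded PP2 (0.49 TPM) in 3 ePP libraries at 3.81, 3.98 and 4.55 TPM, but ePP-P9 replicate 2 had 0.44 TPM. In the HOXB cluster, HOXB6, HOXB7 and HOXB8 were lower by over 1 log2 unit in all 4 ePP libraries, beside 19.5% of all genes. HOXB6 was at 0.63 to 1.02 TPM in ePPs, HOXB7 at 1.42 to 1.96 TPM and HOXB8 at 2.34 to 4.46 TPM. HOXB2 was at 8.80 to 13.1 TPM, below PP2, and HOXB3 (30.2 to 38.7 TPM) and HOXB4 (18.1 to 24.0 TPM) were above it in every ePP library. HOXB5 was at 0.72 to 1.58 TPM in ePPs, below PP2 (3.57 TPM) in every ePP library, though not by over 1 log2 unit in all 4. HOXB9, on the posterior side of HOXB8, stood at 3.80 to 5.28 TPM against 1.80 TPM in PP2. Mean differences on the log2(TPM + 1) scale thus ran from 3.68 for HOXA5 to -3.02 for HOXB6.

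**Figure D3:**
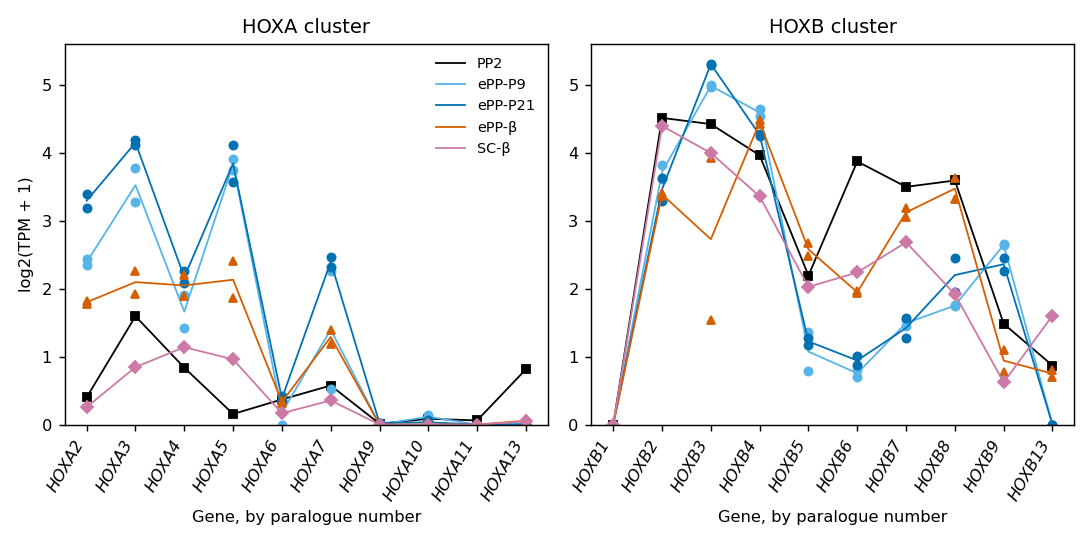
Profiles along the HOXA (left) and HOXB (right) clusters in log2(TPM + 1), with 1 point per library and a line through each group mean for PP2, ePP-P9, ePP-P21, ePP-β and SC-β. ePP points lie above PP2 at HOXA2, HOXA3 and HOXA5 and below it at HOXB6, HOXB7 and HOXB8, and the HOXB3 points of ePP-β lie far apart.

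No HOX member was called between ePPs of passages 9 and 21. With limma on log2(TPM + 1), 13 of 38 members passed the filter of 1 TPM in 2 libraries, and 0 were called higher (beside 1.07% of all tested genes) and 0 lower (beside 0.0569%) at the thresholds used (an adjusted p under 0.05 and a fold change beyond 1 on the log2 scale). On the adjusted p alone there were 0 as well, beside 1.95%. At an unadjusted p under 0.05 there were 4 (HOXA2, HOXA3, HOXB3 and HOXB4), beside 23% of all tested genes. HOXA2 had the lowest adjusted p in the limma test (0.0754), with a log2 fold change of 0.91 ± 0.18 (SE) and both ePP-P21 libraries above both ePP-P9 libraries. HOXA3 differed by 0.63 ± 0.20 and HOXB3 by 0.32 ± 0.10, while HOXB4 differed by -0.33 ± 0.12. All tested genes had a median of 0.13, and with each library centred on its median HOXA5 and HOXB5 went from just above 0 to just below it.

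In all, 7 of the 13 members had both ePP-P21 libraries above both ePP-P9 libraries, beside 41.3% of all tested genes, and 2 had them below, beside 13.1%. HOXC4, among the 7, passed the filter only through the ePP-P21 libraries, so it had to lie above. HOXA7 had the widest replicate gap, at 3.81 and 0.44 TPM in ePP-P9. Without ePP-P9 replicate 1 it was called higher with a log2 fold change of 1.87, as the 1 member called, and the lone ePP-P9 library is then assumed to vary like the ePP-P21 libraries. HOTAIRM1, a noncoding RNA transcribed at the anterior end of the HOXA cluster, was at 24.3 and 23.8 TPM at passage 9 and 54.6 and 54.96 TPM at passage 21, and it was called higher (log2 fold change 1.16, adjusted p = 0.0319, limma). Of the 18 HOX cluster noncoding RNAs, 5 were tested, 1 was called higher and 0 lower, with 3 at an unadjusted p under 0.05.

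When ePPs were turned into ePP-β cells, HOXB5, HOXB6, HOXB7 and HOXB8 rose and HOXA2, HOXA3 and HOXA5 fell. Of 38 members, 14 passed the filter in the 6 libraries. Of these, 4 were called higher (HOXB5, HOXB6, HOXB7 and HOXB8), beside 17.9% of all tested genes, and 5 were called lower (HOXA2, HOXA3, HOXA5, HOXB3 and HOXB9), beside 9.86%. On the adjusted p alone 10 passed, beside 57.4% of all tested genes, as they did at an unadjusted p under 0.05, beside 62.2%. The median log2 fold change of the 14 was -0.41, where that of all tested genes was -0.03. No library of one group overlapped the other for 4 members above (beside 32.2%) and 6 below (beside 31.6%). HOXB6, among those above, passed the filter only through its ePP-β libraries. HOXB9 and HOXC4, among those below, passed it only through ePP libraries. The filter thus favoured the direction seen for these members. Markers of other cell types moved as well: 4 of 4 liver markers were called higher (ALB, AFP, APOA1 and TTR, of which TTR is also made in islets), with sums of 163 to 191 TPM in ePPs and 14714 and 17372 TPM in ePP-β. Of 8 neural markers, 4 were tested and 2 were called higher (PAX6, also an endocrine gene, and ELAVL3), while the sum of the list was 451 to 531 TPM in ePPs and 390.0 and 381 TPM in ePP-β. Of 3 stomach markers tested, 2 were called higher, and of 10 mesenchyme markers tested, 2 were called higher and 3 lower. The 1 hindgut marker tested (CDX2) was called lower. TBXT, the 1 posterior neuromesoderm marker tested, was called higher, listed at 0 in the ePP libraries and at 1.50 and 3.13 TPM in ePP-β. The part of such cells in the HOX differences was not tested.

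The 4 members that rose stand side by side in the HOXB cluster, and neither the gene before them (HOXB4) nor the gene after them (HOXB9) was called higher. HOXB7 was at 1.72, 1.91, 1.42 and 1.96 TPM in the ePP libraries and at 8.09 and 7.33 TPM in ePP-β, a log2 fold change of 1.66 ± 0.17 (SE; adjusted p = 4.0e-04, limma). HOXB8 went from 2.34, 2.39, 4.46 and 2.87 TPM to 11.4 and 8.95 TPM, a log2 fold change of 1.50 ± 0.20 (adjusted p = 0.00139, limma). Both were thus several times higher in ePP-β with no overlap between libraries.

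HOXB5 went from 1.58, 0.72, 1.42 and 1.25 TPM to 5.37 and 4.60 TPM (log2 fold change 1.43, adjusted p = 0.00196, limma). HOXB6 went from 0.75, 0.63, 1.02 and 0.83 TPM to 2.89 and 2.83 TPM (1.10 ± 0.14, adjusted p = 0.00119, limma). Its change was the smallest of the 4, and it was 0.96 with each library centred on its median and 0.60 with quantile normalization, under the fold threshold in both. HOXB6 and HOXB8 were also not called in a fit of all 10 replicated libraries of batches 2 and 3 (adjusted p = 0.0740 and 0.0639, limma).

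HOXB4, next to HOXB5, was at 22.3, 24.0, 18.3 and 18.1 TPM in ePPs and 21.3 and 20.4 TPM in ePP-β and was not called (log2 fold change 0.02 ± 0.09). HOXB9, on the other side of HOXB8, went from 5.28, 5.22, 4.48 and 3.80 TPM to 1.15 and 0.72 TPM (-1.56 ± 0.17, adjusted p = 6.0e-04, limma). The direction therefore turned within the cluster between HOXB8 and HOXB9. The annotated span of HOXB7 overlaps HOXB8 and HOXB9 on its own strand. HOXB5 and HOXB6 overlap HOXB3 and, on the other strand, HOXB-AS3. Exons were not compared, and the part of shared reads in these values was not tested. HOXB2 was at 11.2, 13.1, 8.80 and 11.4 TPM in ePPs and at 9.60 and 9.30 TPM in ePP-β, and it was not called (-0.20 ± 0.15).

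HOXB3 was called lower with a log2 fold change of -2.42 ± 0.61 (adjusted p = 0.0162, limma), but its 2 ePP-β libraries lay far apart. The ePP libraries had 31.1, 30.2, 38.7 and 38.3 TPM and the ePP-β libraries 1.90 and 14.1 TPM. The fold change was -1.22 without ePP-β replicate 1 and -3.61 without ePP-β replicate 2, and the call was lost with no filter on low values (adjusted p = 0.0917) and in the fit of all 10 replicated libraries (adjusted p = 0.139). The annotated span of HOXB3 overlaps HOXB4, HOXB5 and HOXB6 on its own strand and HOXB-AS1, HOXB-AS2 and HOXB-AS3 on the other. Exons were not compared, and the use of strand in counting is not given in the sources used here. The part of shared reads in the HOXB3 values was therefore not tested.

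In HOXA, HOXA2, HOXA3 and HOXA5 fell, while HOXA4, which lies between the last 2, was not called. HOXA3 was at 2.80 and 3.81 TPM in ePP-β, a log2 fold change of -1.74 ± 0.20 (adjusted p = 6.4e-04, limma) against the ePP levels given above. HOXA5 was at 4.30 and 2.62 TPM (-1.70 ± 0.23, adjusted p = 0.00142, limma). HOXA2 was at 2.42 and 2.54 TPM (-1.04 ± 0.15, adjusted p = 0.00183, limma), near the fold threshold, and was not called without ePP-P21 replicate 1 (-0.99). HOXA4 was at 1.68 to 3.79 TPM in ePPs and 2.70 and 3.61 TPM in ePP-β (0.13 ± 0.21). HOXA7 was not called (-0.61 ± 0.47), with ePP-P9 replicate 2 again below both ePP-β libraries, and was called lower without that library (-1.04). HOXC4 was at 0.58 to 1.37 TPM in ePPs and at 0.03 TPM in both ePP-β libraries with an adjusted p of 0.00252 (limma), and missed the fold threshold at -0.87. HOXC4 was called lower with a pseudocount of 0.1 TPM (-2.86) or 0.01 TPM (-4.36), with each library centred on its median (-1.005) and with quantile normalization (-1.08). The annotated span of HOXA3 overlaps HOXA4, HOXA5 and HOXA6 and the antisense RNAs HOXA-AS2 and HOXA-AS3. Exons were not compared here either, and the part of shared reads was not tested.

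**Figure D4:**
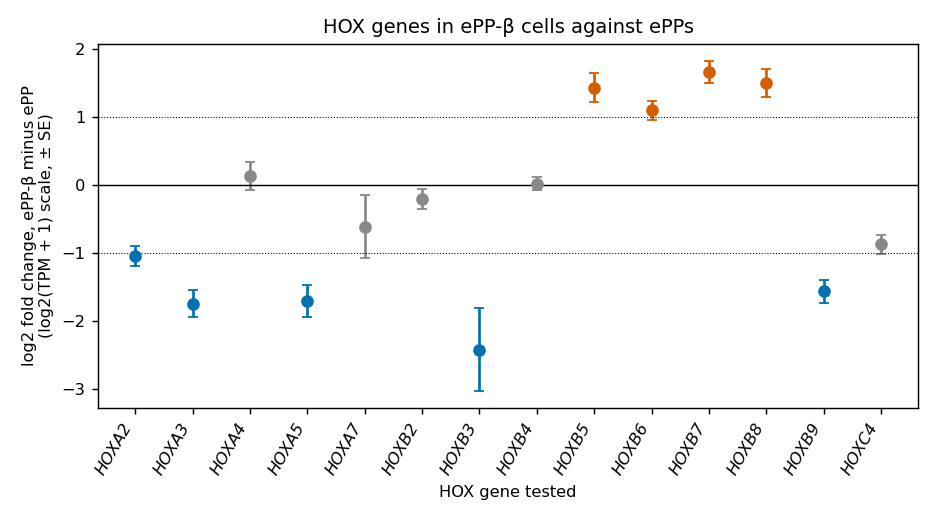
Log2 fold change of the 14 HOX members tested, ePP-β minus ePP, on the log2(TPM + 1) scale (points) with its SE (bars), in cluster order. Orange points were called higher (HOXB5 to HOXB8), blue points lower (HOXA2, HOXA3, HOXA5, HOXB3 and HOXB9) and grey points neither, with dotted lines at the fold threshold of 1.

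Among noncoding RNAs of the clusters, those called were lower in ePP-β. Of 18, 6 were tested, 0 were called higher and 4 were called lower. HOTAIRM1 fell to 8.55 and 10.2 TPM (log2 fold change -1.85, adjusted p = 4.4e-05, limma), HOXA-AS3 by 2.54 and HOXA-AS2 by 2.04 on the log2 scale, and HOXB-AS3 from 14.9 to 20.8 TPM in ePPs to 4.44 and 4.13 TPM (-1.86). Of 16 neighbours outside the clusters, 13 were tested and 1 was called higher (TTLL6, 2.99, a tubulin-modifying enzyme next to the posterior end of HOXB) and 0 lower.

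Set beside SC-β across batches, where batch and origin cannot be told apart, ePP-β cells had 4 of 15 members higher by over 1 log2 unit in both libraries (HOXA2, HOXA3, HOXB4 and HOXB8), beside 14.5% of all genes, and 1 lower (HOXD1), beside 14.7%. HOXA3 was at 0.80 TPM in SC-β and HOXA2 at 0.20 TPM, below both ePP-β libraries. These 2 genes reached 1 TPM only in ePP-β, and HOXD1 only in SC-β, so each could pass the fold in 1 direction only. HOXD1 was listed at 0 in both ePP-β libraries and was at 4.72 TPM in SC-β. HOXB8 was at 2.78 TPM in SC-β and HOXB4 at 9.25 TPM.

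In batch 3 the replicates lay far apart in HOX levels, which bears on every comparison of these 4 libraries. Of 13 members with 1 TPM in either DMSO library, 13 were lower in replicate 2 and 10 by over 1 log2 unit, beside 9.42% of all genes. Of 14 in I-BET151, 14 were lower in replicate 2 and 11 by over 1 log2 unit, beside 15.1%. Members that reached 1 TPM only in replicate 1 had to lie lower in replicate 2. The summed HOX level was 6.24 times higher in replicate 1 than in replicate 2 with DMSO and 6.13 times with I-BET151. The median member difference was -1.39 with DMSO and -1.57 with I-BET151, where all genes had a median of -0.08 in both. Ribosomal protein genes took 19.1% and 26.4% of the listed TPM in DMSO replicates 1 and 2, and 15.6% and 26.3% in those of I-BET151. What part this has in the HOX difference was not tested. In the ePP and ePP-β groups the same ratio of sums lay between 0.92 and 1.05.

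The comparison of I-BET151 with DMSO asks which genes change in progenitors over 7 days with the inhibitor. Of 38 members, 14 passed the filter, and 0 were called higher (beside 0.00599% of all tested genes) and 0 lower (beside 0.204%) by limma, nor was any on the adjusted p alone (beside 0.21%). At an unadjusted p under 0.05 there were 2 (HOXA2 and HOXA3), beside 15.2% of all tested genes. The fold change was above 0 for 11 of the 14, with a median of 0.31, where all tested genes had 0.16. Which members were called changed with a joint fit and with a replicate block, as given below.

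HOXA3 was at 2.13 and 0.44 TPM in DMSO replicates 1 and 2 and at 11.0 and 6.22 TPM in those of I-BET151, a log2 fold change of 2.13 ± 0.51 (SE; adjusted p = 0.156, limma). HOXA2 was at 0.29 and 0.10 TPM with DMSO and 1.57 and 1.37 TPM with I-BET151 (1.05 ± 0.28, adjusted p = 0.181, limma). These were the 2 members with both I-BET151 libraries above both DMSO libraries, beside 28.7% of all tested genes, and 0 members had both below, beside 18%. HOXA2 passed the filter only through its I-BET151 libraries, so it had to lie above DMSO. In the fit of all 10 replicated libraries HOXA2 and HOXA3 were called higher (adjusted p = 0.0158 and 0.0166, limma). That fit called 1673 genes in all, where the fit of the 4 libraries called 35. The fit of all 10 libraries assumes the same spread between replicates in the ePP, ePP-β, DMSO and I-BET151 groups. The ratio of summed HOX levels, replicate 1 over replicate 2, was 6.24 with DMSO and 6.13 with I-BET151. In the ePP and ePP-β groups it lay between 0.92 and 1.05. The adjusted p-values of the joint fit may thus be too low for HOX genes with such a replicate gap. At the same thresholds the paper, which used DESeq2, reported more genes in each direction than the fit of the 4 libraries. The liver markers summed to 9798 and 8514 TPM with DMSO and to 984 and 2330 TPM with I-BET151, with 1 of 4 called lower (TTR), and their part in the HOX values was not tested.

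HOXB3 was at 16.1 and 0.78 TPM with DMSO and at 78.4 and 7.25 TPM with I-BET151 (2.21 ± 1.48, adjusted p = 0.541, limma). HOXB4 was at 4.27 and 0.54 TPM with DMSO and 16.4 and 2.39 TPM with I-BET151 (1.43 ± 0.97, adjusted p = 0.548, limma). Within each replicate number both were higher with I-BET151, but the groups overlapped. With the replicate number as a block, both were called higher (adjusted p = 0.00601 for HOXB3 and 0.0253 for HOXB4, limma), as were HOXA2 and HOXA3. The block fit called 2294 genes in all, but the labels do not say that a number marks a shared culture. The reported fit counts replicate differences as spread within groups, so its lack of calls does not show that HOX levels were unchanged. Without I-BET151 replicate 2, HOXA3, HOXB3 and HOXB4 were called higher, at log2 fold changes of 2.50, 3.85 and 2.61. The lone I-BET151 library is then assumed to vary like the DMSO libraries. It is also the replicate with the higher HOX levels, set against both DMSO replicates. In the same order of genes, the fold changes were 1.76, 0.58 and 0.25 without I-BET151 replicate 1. They were 1.57, 0.58 and 0.54 without DMSO replicate 2, and 2.69, 3.85 and 2.32 without DMSO replicate 1.

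For HOXB6 to HOXB9 the log2 fold changes lay between -0.48 and 0.32, and none was called. HOXB8 was at 4.95 and 1.03 TPM with DMSO and 6.76 and 1.44 TPM with I-BET151, HOXB9 at 5.87 and 1.37 TPM and at 7.68 and 1.83 TPM, and HOXB7 at 2.83 and 1.18 TPM and at 2.28 and 0.95 TPM. HOXB6 was at 3.38 and 1.23 TPM with DMSO and 2.75 and 0.34 TPM with I-BET151 (-0.48 ± 0.62). HOXB2 was at 4.72 and 0.52 TPM and at 8.98 and 0.40 TPM, with its replicates moving in opposite directions. HOXA5 was at 1.20 and 0.13 TPM with DMSO and at 3.61 and 0.49 TPM with I-BET151 (0.74 ± 0.65).

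**Figure D5:**
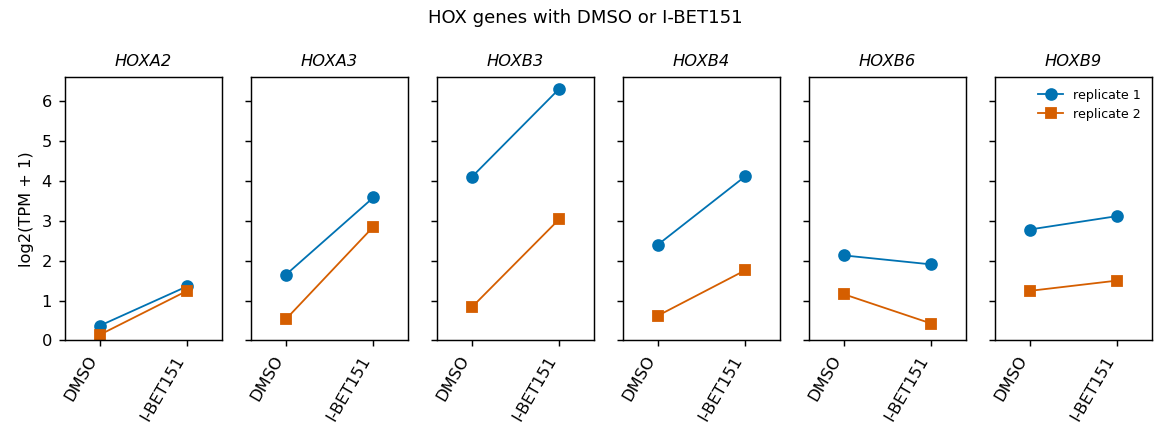
Levels of 6 HOX genes in log2(TPM + 1) with DMSO and with I-BET151, with 1 point per library and a line joining libraries of the same replicate number (blue circles for replicate 1, orange squares for replicate 2). HOXA2, HOXA3, HOXB3 and HOXB4 are higher with I-BET151 in both replicates, HOXB6 is lower in both, and replicate 2 lies below replicate 1 in every panel.

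HOXD genes reached 1 TPM in SC-β and in batch 3 but not in ePPs. HOXD1 was at 2.59 and 0.33 TPM with DMSO and 3.54 and 0.58 TPM with I-BET151, and HOXD4 at 2.21 and 0.32 TPM and at 2.21 and 0.13 TPM, while HOXD1 was at most 0.22 TPM and HOXD4 at most 0.05 TPM in the 4 ePP libraries. Against PP2, of 15 members with 1 TPM in at least 1 of the 3 libraries, 7 were lower by over 1 log2 unit in both DMSO libraries (HOXB2, HOXB4, HOXB6, HOXB7, HOXB8, HOXC4 and HOXC6), beside 21% of all genes, and 0 were higher, beside 6.85%. Of these, HOXC4 and HOXC6 reached 1 TPM only in PP2, so they could pass the fold only downwards. Batch and culture cannot be told apart here either.

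Genes that act with or on HOX genes were counted from fixed lists. TALE-class cofactors, which bind DNA together with HOX proteins, had 9 of 9 tested in the ePP-β comparison, with 1 called higher (MEIS3, 0.18 to 0.44 TPM in ePPs, 4.07 and 5.89 TPM in ePP-β) and 1 lower (PKNOX2). PKNOX2 had 5.21 and 4.10 TPM at passage 9 and 0.08 and 0.09 TPM at passage 21, and 0.03 TPM in both ePP-β libraries, so the passage 9 libraries carry that difference. With I-BET151, 0 of 9 were called, with 1 at an unadjusted p under 0.05 (MEIS2, log2 fold change 0.95), and between passages 0 of 8 were called higher and 1 lower (PKNOX2, -2.37). ParaHox genes, the sister group of the HOX genes, had 2 tested, and both were lower in ePP-β: PDX1 (-1.25) and CDX2 (-2.46), a hindgut factor that acts upstream of central and posterior HOX genes and stood near 95 TPM in all 4 ePP libraries (94.2 to 95.4 TPM) and at 17.4 and 15.3 TPM in ePP-β.

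Of 12 genes of retinoic acid reception and turnover, 8 were tested in the ePP-β comparison, 1 was called higher (ALDH1A1, 1.14) and 2 lower (ALDH1A2, -4.42, and CYP26B1, -2.17, which make and break down retinoic acid). Of 13 Polycomb genes, 12 were tested, with 0 higher and 2 lower (EZH2, -1.16, the methyltransferase of PRC2, and CBX2, -1.63). Of 12 trithorax-type genes, 12 were tested, with 0 higher and 3 lower (MEN1, -1.33, WDR5, -1.16, and KMT2B, -1.02). Between passages the Polycomb list had 1 called higher of 12 (EZH1, 1.15), and the retinoic acid (7 tested), trithorax-type (12) and ParaHox (2) lists had 0 called, with 1, 3 and 0 at an unadjusted p under 0.05. With I-BET151, limma called 0 genes of the noncoding, ParaHox, retinoic acid, Polycomb, trithorax-type and neighbour lists, with 2, 0, 1, 2, 1 and 1 at an unadjusted p under 0.05.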

How the data were processed

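RNA sequencing libraries of MEL1 cells were grouped by their titles. The authors aligned paired-end reads to GRCh38 with HISAT2 (version 2.1.0 in the submitters' processing notes), assembled transcripts with StringTie and deposited TPM per gene identifier. Annotation release and use of strand are not given in the sources used here. TPM keeps no depth, so depth is unknown and no counting interval is given; precision rests on 2 libraries per group. All 37 mitochondrial genes were listed at 0, so an exact 0 is reported only as listed at 0.

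Symbols and positions came from GENCODE release 44 (60370 of 60624 identifiers matched), and promoter sequences from RefSeq. One annotated HOX gene is not reported here. Members, gene lists and tests were chosen with earlier results of these data known. Tests ran on log2(TPM + 1), a scale that understates changes of low genes, over genes that reached 1 TPM in 2 or more libraries of a fit, in limma (version 3.58.1, under R 4.3.3) with a trend in eBayes, two-sided, with Benjamini-Hochberg adjustment over all tested genes. The ePP level was the mean of both ePP group means. Calls needed an adjusted p under 0.05 and a log2 fold change beyond 1, the thresholds of the study. Comparisons with 1 library per group, or across batches, used the same fold with no test, over genes with 1 TPM in a library compared. A gene that reached 1 TPM on only 1 side could pass that fold in 1 direction only. Members with a group mean of 5 TPM were given in every library, those with 1 TPM by range or where a result turned on them. In the lists, up to 4 called genes were named. ± is the SD where stated and otherwise the SE. The code was tested on simulated data. Alternatives were other pseudocounts, filters, centring, quantile normalization, a replicate block, a joint fit, the adjusted p alone and leaving out each library.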

Additional observations from a re-analysis of the deposited data

How the results depend on the processing

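For I-BET151 against DMSO, 0 members were called higher in the reported fit, and 4 with the replicate block (HOXA2, HOXA3, HOXB3 and HOXB4), 2 with all 10 replicated libraries and 0 to 3 when each library was left out. The 3 arose without I-BET151 replicate 2. Over all tested genes, 35 were called in the reported fit, 2294 with the block, 1673 with all 10 libraries and 1034 without I-BET151 replicate 2. The libraries share a replicate number but the labels do not say that a number marks a shared culture; the replicate differences of the 2 groups correlated across genes (r = 0.675), with the same sign for 14 of 14 members and for 78.1% of all tested genes. The replicate block changed no other count of called members. For ePP-P21 against ePP-P9, 0 to 1 members were called higher when each library was left out, the 1 being HOXA7. For ePP-β against ePP, 4 members were called higher in the reported fit and in each fit without a library, and 2 with a filter of 5 TPM, which tested 9 members, or with all 10 replicated libraries. The number called lower was 4 to 6 when each library was left out. Beyond the filter, the cause of these changes was not tested. In every comparison the fit of all 10 replicated libraries assumes the same spread in all groups, although HOX replicates lay farther apart with DMSO and I-BET151. The mean summed HOX level was 121, 139 and 86.1 TPM in ePP-P9, ePP-P21 and ePP-β with each library's listed TPM rescaled to the nominal TPM total, and 153.0, 171 and 100.5 TPM when ribosomal protein genes were also left out. The number of members at or above the detection level ranged from 2 to 15 over libraries at 1 TPM and from 0 to 6 at 5 TPM. Among single members that were not called, the sign of the fold change differed in 14 combinations of a member and a setting for I-BET151, 8 for the passages and 6 for ePP-β, with no call reversed. Depth is unknown, so levels under 1 TPM cannot be ranked.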

Other observations

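PKNOX2, a cofactor of HOX proteins that was singled out after its values were seen, had 5.21 and 4.10 TPM at passage 9 of ePPs and 0.08 and 0.09 TPM at passage 21. In batch 3 it followed the replicate number and not the treatment, at 0.12 and 4.79 TPM in DMSO replicates 1 and 2 and at 0.14 and 5.49 TPM in those of I-BET151. The HOX members with 1 TPM in either library of a group, by contrast, were lower in replicate 2 of both groups. MEIS3, another cofactor, was at 57.6 TPM in hPSC, 90.0 TPM in DE, 127 TPM in PP2 and 87.6 TPM in SC-β, all of batch 1. It was at most 5.89 TPM in the ePP, ePP-β and batch 3 libraries, so batch and cell state cannot be told apart. HOTAIRM1 was at 2.44 and 0.19 TPM with DMSO and at 8.89 and 6.17 TPM with I-BET151.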
